A study of Mus musculus with 310 samples.

Results

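The lineage transcription factors of the epidermis and hair follicle described here are Trp63, Klf4, Klf5, Gata3, Gata6, Sox9, Tfap2a, Tfap2c, Grhl3 and Ovol1. They were chosen by name, and all 10 were among the 14068 genes of the deposited table. Single tdTomato-positive tail keratinocytes were sorted into plates and sequenced with a modified Smart-seq2 protocol, which reads polyadenylated RNA along its length without molecular identifiers, so that reads are not independent molecules. The table held 310 libraries, counted here as cells, 145 of the group labelled 38w (replicates RepI and RepL) and 165 of the group labelled 38wUW (RepM and RepN). The series compared repaired skin with skin of an age control, but the labels do not spell out UW, so differences are given only as 38w against 38wUW. Mice of both groups, of a mixed CBA and C57BL/6 background, carried Lrig1-EGFP-ires-CreERT2 and Rosa26-fl/STOP/fl-tdTomato and had 1 dose of hydroxytamoxifen on the tail. The label therefore marked cells that expressed Lrig1 at that time and all their progeny, whatever these had become by the time of the sort, which the labels give as 38w and 38wUW. How many animals stood behind a replicate is not in the labels. In comparisons of the groups, p-values measure the spread between these 4 replicates. In comparisons of classes of cells (below), the replicate was a block, and p-values measure the spread left between sums of a replicate and class.

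These factors divide the work of building a stratified epithelium with appendages. p63, the product of Trp63, keeps keratinocytes in the basal, stratified programme. Sox9 specifies and maintains follicle stem cells, Gata6 marks the duct and upper follicle lineage, and Gata3 acts in the inner root sheath and in the epidermal barrier. The AP-2 proteins (Tfap2a, Tfap2c) and the zinc-finger proteins Klf4 and Klf5 act across epidermal growth and differentiation, while Grhl3 and Ovol1 act as cells leave the basal layer and form the barrier.

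RefSeq promoter sequences (GRCm38.p6) were at hand for 4 of the 10 members. The 250 bases before the start of Klf4, Grhl3 and Gata3 are shown because Klf4 and Grhl3 had their highest share of cells, and Gata3 its lowest, in the same class of cells (below). Capitals mark the AP-2 motif GCCNNNGGC and the KLF motif CACCC on either strand, each sequence running 5′ to 3′ on the minus strand.
Klf4, chr4:55532476-55532725: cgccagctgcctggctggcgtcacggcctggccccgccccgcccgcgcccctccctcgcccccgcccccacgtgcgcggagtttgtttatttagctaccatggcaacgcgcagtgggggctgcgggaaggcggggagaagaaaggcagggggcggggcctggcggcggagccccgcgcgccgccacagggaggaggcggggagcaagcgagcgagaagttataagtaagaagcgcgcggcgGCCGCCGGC
Grhl3, chr4:135573633-135573882: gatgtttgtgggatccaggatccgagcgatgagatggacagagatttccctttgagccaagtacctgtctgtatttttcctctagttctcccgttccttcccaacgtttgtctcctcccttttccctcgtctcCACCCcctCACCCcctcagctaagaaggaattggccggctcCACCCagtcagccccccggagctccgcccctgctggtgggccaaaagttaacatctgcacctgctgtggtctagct
Gata3, chr2:9878601-9878850: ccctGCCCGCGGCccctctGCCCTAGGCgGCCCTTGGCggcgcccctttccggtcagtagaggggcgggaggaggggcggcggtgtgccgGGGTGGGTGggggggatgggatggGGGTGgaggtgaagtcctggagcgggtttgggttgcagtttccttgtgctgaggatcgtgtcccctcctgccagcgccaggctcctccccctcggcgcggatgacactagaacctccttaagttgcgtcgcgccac

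The Klf4 window held 1 AP-2 match and 0 KLF matches. The Grhl3 window held 3 KLF matches and 0 AP-2 matches. The Gata3 window, which lies inside the annotated span of the gene, held 3 of each, of which 2 neighbouring KLF matches share a base. Over 27025 gene promoters of the same length, 13.6% held the AP-2 motif and 51.3% the KLF motif. The GATA motif AGATAA (10.3% of promoters) and the GRHL motif AACCNGTT (1.71%) had no match in the 3 windows. A match is a description of letters and not of binding.

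The genes were located in the GENCODE M21 annotation of GRCm38. Among the follicle factors, Sox9 spans chr11:112782224-112787760 on the plus strand, Gata6 chr18:11052064-11085635 on the plus strand, and Gata3 chr2:9857078-9890034 on the minus strand. Trp63 spans chr16:25683763-25892102 (plus), Klf4 chr4:55527143-55532466 (minus) and Klf5 chr14:99298691-99315036 (plus). Tfap2a spans chr13:40715302-40738376 (minus), Tfap2c chr2:172549593-172558622 (plus), Grhl3 chr4:135541888-135573630 (minus) and Ovol1 chr19:5549136-5560646 (minus). Exons of other annotated genes share bases with those of Gata3, Gata6, Tfap2a and Ovol1, and because the library does not mark strand, reads from the shared bases may not be told apart. The genes that overlap the span of Trp63 share 0 exon bases with it. Of the 281 cells with Tfap2a reads, 148 held estimates that were not whole, against at most 3 cells for any other member, so the Tfap2a values are the least certain. Counts were per gene and do not separate the isoforms of p63.

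Cells held from 11711 to 721564 reads (median 61294), and the replicates summed to between 5472070 and 12946742 reads. RepI came from plates C114 and C118 and each other replicate from 1 plate. Plate C114 stood apart, with a median of 31.3% of reads in ribosomal protein genes against 3.38% to 6.53% on the other plates. The median share of mitochondrial reads was 2.77% on C114, 33.8% on C118, 9.69% on C119, 14.6% on C128 and 18.3% on C129, so that C118 stood apart in the other direction. The names of 15 libraries carry a suffix that the labels do not explain, 13 of them IDTILL, all on C114, and 2 of them MBULK, on C119 and C129, which may hold more than 1 cell. On C114, 11 wells are named by a pair of libraries. The pairs correlated at r = 0.447 to 0.724, beside medians of 0.506 to 0.678 with other cells. In 2 of the 11 the libraries were each other's best match. These values cannot show whether a pair came from 1 cell. All were kept as separate cells, and results on shares were also taken without the 15. The keratin Krt14 was detected in every replicate, at 19615, 4626, 1808 and 825 CPM (reads scaled to a replicate total of 1000000) in RepI, RepL, RepM and RepN. The summed CPM of the 3 immune markers measured lay between 1.31 and 2.93 and that of the 5 fibroblast markers between 8.42 and 62.7, while of the endothelial markers Kdr was near 0 and Pecam1 stood at 1264 to 8773. Lrig1, whose promoter drove the label, had 38.5, 7.07, 53.6 and 66.5 CPM.

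The members spanned a wide range of levels. Per kilobase of the longest annotated coding transcript, Klf4 stood highest at 98.0 ± 43.4 CPM per kb (SD, n = 4), followed by Trp63 at 67.5 ± 32.4 and Sox9 at 47.8 ± 25.7. Grhl3 stood lowest at 4.51 ± 2.92 CPM per kb, below Tfap2c at 8.42 ± 5.52 and Ovol1 at 8.94 ± 6.10. Each neighbouring pair in that order differed by less than the larger of its SDs, and Gata3, Tfap2a, Klf5 and Gata6 filled the middle. With the median length of the coding transcripts in place of the longest, Sox9 moved from place 3 to place 6, while the first 2 and the last 3 genes kept their places. Before thinning (below), reads for Tfap2a were found in 281 of 310 cells, of which 148 held estimates that were not whole. Reads for Klf4 were found in 259, for Trp63 in 242 and for Sox9 in 202, but for Grhl3 in only 69. In thinned cells Tfap2a did not lead Klf4 throughout. Its shares were 42.6%, 87.1%, 78.1% and 66.7% in RepI, RepL, RepM and RepN, against 69.1%, 71.4%, 76.6% and 77.3% for Klf4. The mean share of Tfap2a was the lower of the pair in both groups. A few cells carried much of each total. For Gata6, the 7 most read cells held at least as many reads as all the others together, and 1 cell supplied 65.4% of the reads of RepL and 60.7% of those of RepM. For Trp63, the most read cell of a replicate held between 11.3% and 29.1%. Sums over cells were therefore read beside the share of cells with a read.

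The comparison of 38w with 38wUW asked whether the progeny of Lrig1 cells differed in these factors between the groups. In sums over the cells of each replicate, none of the 10 members was called by edgeR's quasi-likelihood test at an adjusted p of 0.05, and the test called 0% of the 11760 genes tested. At an unadjusted p under 0.05 it held 949 genes and 0 members. DESeq2 called 83 genes and 0 members, and edgeR called 1215 genes and 0 members without RepL. Over the members the median log2 fold change was 0.33, with 7 of 10 above 0, beside a median of 0.12 over all genes tested.

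**Figure D1:**
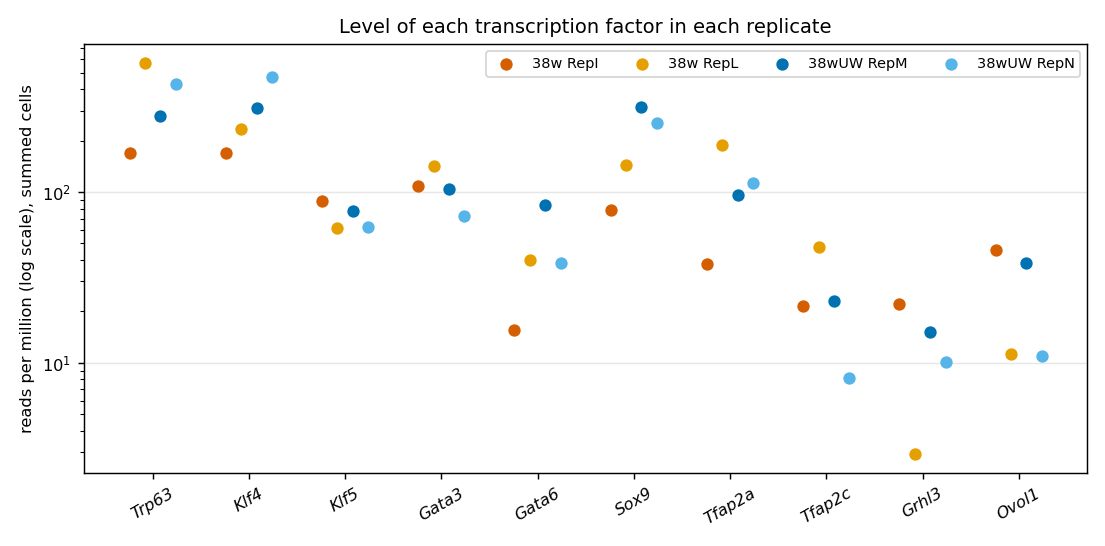
Level of each member (log axis, CPM in the summed cells of a replicate) in the 2 replicates of 38w (orange) and the 2 of 38wUW (blue), 1 point each. The replicates of a group lie up to several-fold apart for Trp63, Tfap2a, Grhl3 and Ovol1, while the 38w points for Sox9 and Klf4 lie under both 38wUW points.

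Sox9 and Klf4 were lower, and Gata3 higher, in both replicates of 38w than in both of 38wUW, 3 of 10 members without overlap where 38.8% of all genes tested showed none. Sox9 had 78.0 and 144.6 CPM in RepI and RepL against 313.8 and 254.0 in RepM and RepN. Its log2 fold change was -1.11 ± 0.86 (SE, n = 2 and 2; edgeR adjusted p = 0.732). Klf4 had 168.7 and 234.4 CPM against 310.5 and 473.8, a log2 fold change of -0.71 ± 0.87 (edgeR adjusted p = 0.836).

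Gata3 had 108.8 and 142.6 CPM in 38w against 104.5 and 72.7 in 38wUW, so the nearest replicates of the groups almost met. Its log2 fold change was 0.75 ± 0.83 (edgeR adjusted p = 0.817). Tfap2c had the largest positive log2 fold change of the members, with 21.6 and 47.8 CPM against 23.0 and 8.19, at 1.39 ± 0.96 (edgeR adjusted p = 0.706), but the groups overlapped. Gata6 had 15.5 and 39.8 CPM against 84.2 and 38.2 (-0.91 ± 0.91, edgeR adjusted p = 0.793). For Trp63, Klf5, Tfap2a, Grhl3 and Ovol1 the log2 fold changes lay between 0.26 and 0.47, each smaller than its SE.

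Direction was kept under every alternative fit for Klf4, Gata6 and Sox9 (lower in 38w) and for Klf5, Gata3 and Tfap2c (higher in 38w). It turned in at least 1 fit for Trp63, Tfap2a, Grhl3 and Ovol1. For Trp63 it turned without RepL, whose 567.3 CPM was the highest of the replicates, to -0.73. For Grhl3 and Ovol1 it turned without RepI, to -1.87 and -0.90.

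The share of cells with a read separated the groups most clearly for Sox9. Each cell was thinned at random to 20000 reads, which left 277 cells, so that deeper cells could not score higher by depth alone. Sox9 was then read in 35.3% of the cells of RepI (24 of 68; Wilson 95% interval 25.0% to 47.2%) and in 32.9% of those of RepL (23 of 70; 23.0% to 44.5%). The shares were 79.7% of RepM (51 of 64; 68.3% to 87.7%) and 82.7% of RepN (62 of 75; 72.6% to 89.6%). Both 38w replicates lay far under both 38wUW replicates. The intervals take cells as units, so they cover counting error only and not the spread between replicates. The means were 34.1% ± 1.72 (SD, n = 2) in 38w and 81.2% ± 2.11 in 38wUW, a difference of -47.1 percentage points. With 2 against 2 replicates the exact two-sided permutation test cannot go below p = 0.333, which is the value for Sox9.

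**Figure D2:**
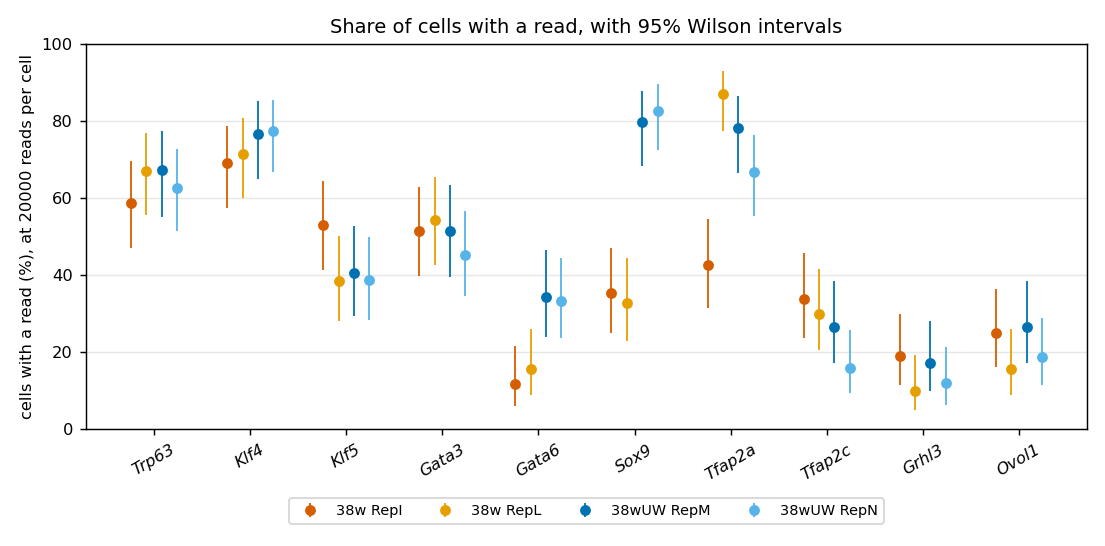
Share of cells with a read of each member (percent, cells thinned to 20000 reads) in each replicate, with 95% Wilson intervals that cover counting error only. Sox9 stands at 35.3% and 32.9% in 38w and at 79.7% and 82.7% in 38wUW, and Gata6 at 11.8% and 15.7% against 34.4% and 33.3%.

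Among the 7056 genes read in at least 10% of the thinned cells, the Sox9 difference was the largest in size of either sign. The ranks were 1 of 7056 also with RepI from plate C118 only and without the 15 cells with a suffix, but 10 of 7056 when the cells were not thinned. Unthinned, Sox9 was read in 47.1% and 44.0% of cells in 38w and in 76.8% and 88.0% in 38wUW, a difference of -36.8 points. Over all 7056 genes the median difference was -3.66 points. In cells with a Sox9 read, the median was 2.5 and 3 thinned reads in RepI and RepL and 5 and 5 in RepM and RepN.

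**Figure D3:**
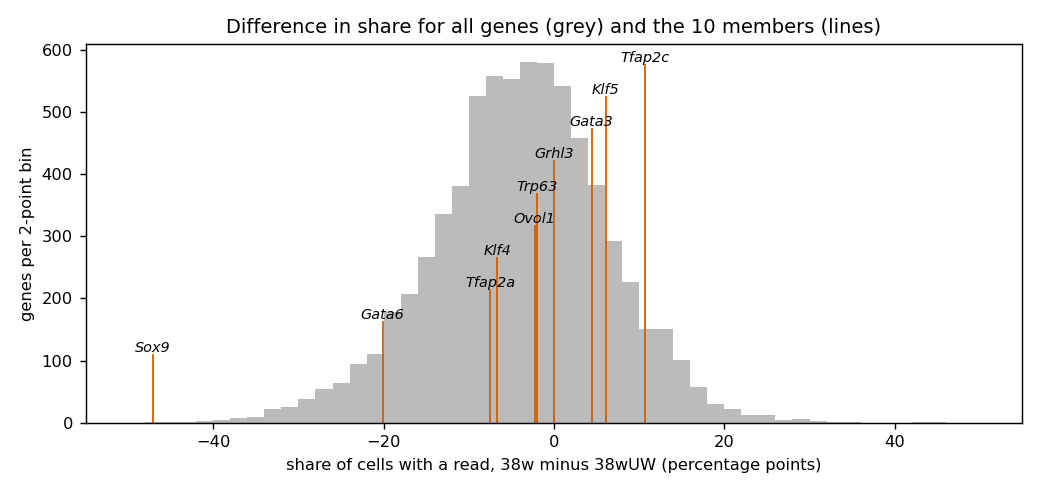
Difference between the groups in the share of cells with a read (percentage points, 38w minus 38wUW) for 7056 genes in bins of 2 points, with the 10 members as lines of staggered height for legibility. Sox9 lies at the left end of the distribution at -47.1 and Gata6 at -20.1, while the other 8 members lie between -7.50 and 10.6.

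The 3 plates of 38w gave like shares. Sox9 was read in 37.3% of the thinned cells of C114, 29.4% of C118 and 32.9% of C119, against 79.7% of C128 and 82.7% of C129. The 17 cells of C118, the plate with the highest mitochondrial share, gave a wide interval, from 13.3% to 53.1%, and the part of RNA quality in these shares was not tested. Without the 15 libraries with a suffix the difference was -50.1 points. With any 1 replicate left out the difference lay between -48.6 and -45.6 points. Each cell also has 2 batch tags in the labels, and they disagree for C128 and C129. Within Replicate2 of the first tag, C114 (37.3%) stood under C128 (79.7%), and within Replicate1, C118 and C119 (29.4% and 32.9%) stood under C129 (82.7%).

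**Figure D4:**
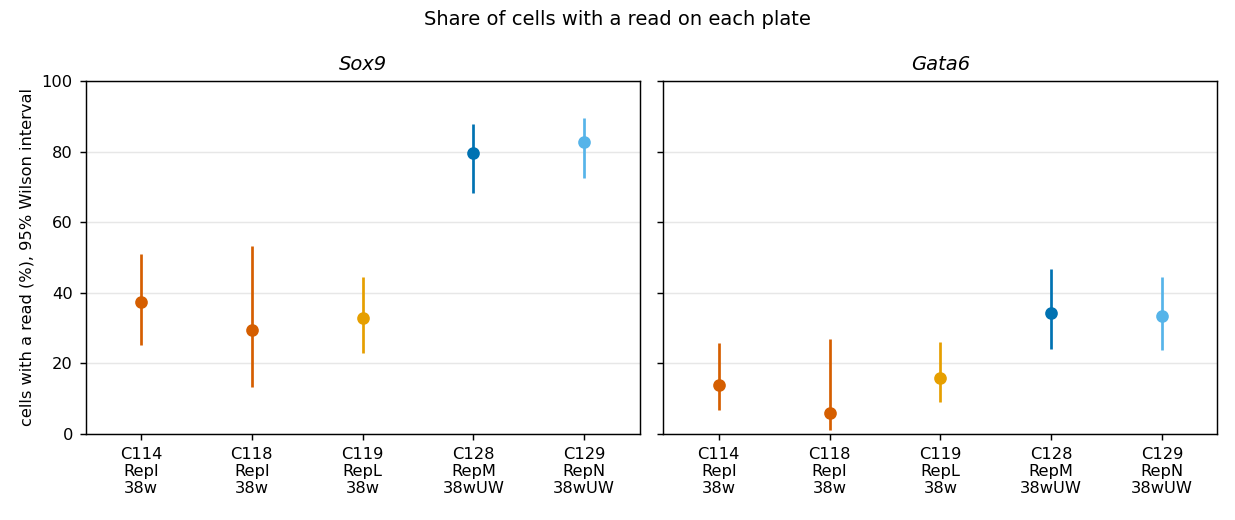
Share of cells with a read of Sox9 (left) and Gata6 (right) on each of the 5 plates (percent, cells thinned to 20000 reads), with 95% Wilson intervals. All 3 plates of 38w lie under both plates of 38wUW for each gene.

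Gata6, the duct lineage factor, differed in the same direction. It was read in 11.8% and 15.7% of cells in 38w and in 34.4% and 33.3% in 38wUW, a difference of -20.1 points (SDs 2.79 and 0.737; exact permutation p = 0.333). Its rank by size was 492 of 7056, and with cells thinned to 10000 reads the difference was -12.6 points. Klf4 (69.1% and 71.4% against 76.6% and 77.3%) was also lower in both 38w replicates and Tfap2c (33.8% and 30% against 26.6% and 16%) higher in both, so that 4 of 10 members showed no overlap in shares where 46.1% of the 7056 genes showed none. The shares of the other 6 members overlapped between the groups. For Grhl3 they were 19.1% and 10% against 17.2% and 12%, and for Trp63 58.8% and 67.1% against 67.2% and 62.7%. Tfap2a varied most within a group, from 42.6% in RepI to 87.1% in RepL.

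To place the factors among the cell types of the tail, each cell was scored on marker genes for 5 classes, none of which was a member, and given the class of its best score where that led by 0.2 or more. These classes are ranges of a score and not sorted types, and 47 cells had a lead between 0.1 and 0.3. The classes held 83 basal-like, 50 interfollicular differentiated-like, 59 infundibular and duct differentiated-like, 31 bulge-like and 24 sebocyte-like cells, and 63 cells had no clear class. The bulge-like, infundibular and sebocyte-like classes together made up 20% and 25.3% of the cells of RepI and RepL and 47.6% and 50.6% of those of RepM and RepN.

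**Figure D5:**
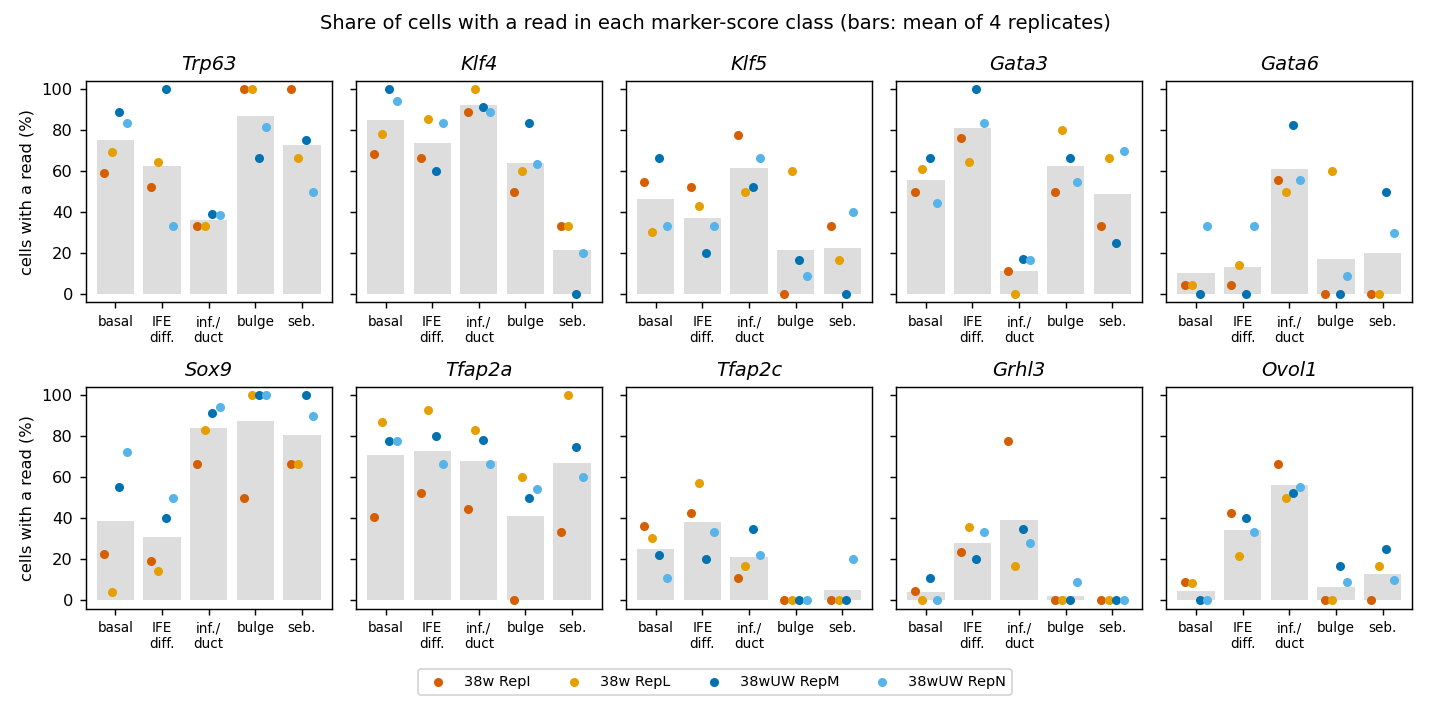
Share of thinned cells with a read of each member in 5 marker-score classes: basal-like, interfollicular differentiated-like (IFE diff.), infundibular and duct differentiated-like (inf./duct), bulge-like and sebocyte-like (seb.). Bars give the mean of the 4 replicates and points the replicates, some of which hold few cells (2 bulge-like cells in RepI). Sox9 stands high in the 3 follicle and gland classes, Gata6 in the infundibular class, and Grhl3 and Ovol1 in both differentiated classes, while Gata3 is high in one of these and low in the other.

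Sox9 was most widely read in the follicle and gland classes. Reads were found in 23 of 24 thinned bulge-like cells (95.8%), 49 of 56 infundibular and duct cells (87.5%) and 19 of 23 sebocyte-like cells (82.6%), but in 33.3% of basal-like and 23.9% of interfollicular differentiated-like cells. Over replicates the means of the first 3 were 87.5% ± 25.0, 83.9% ± 12.4 and 80.8% ± 16.9 (SD, n = 4), which did not differ beyond their spread. Below them lay a gap of 42.1 points to the basal-like class at 38.7% ± 30.8. The bulge-like sums held 596, 764 and 532 CPM of Sox9 in RepL, RepM and RepN. Against the mean of the other classes that was a log2 fold change of 2.82 ± 0.70 (edgeR adjusted p = 0.0544, where 1.1% of 10743 genes were called). It passed the threshold with scores set within plates, without the replicate as a block, without RepN and in thinned cells, and missed it without a margin between scores (edgeR adjusted p = 0.0949), without C114 (0.0957), without RepI (0.092), without RepM (0.115) and without RepL (0.203, at a log2 fold change of 2.21).

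The Sox9 difference between the groups was also taken within classes, which splits the same cells. In basal-like cells it was read in 22.7% and 4.35% of cells in 38w (5 of 22 and 1 of 23 cells) and in 55.6% and 72.2% in 38wUW. In interfollicular differentiated-like cells the shares were 19.0% and 14.3% against 40% and 50%, the last of them from 5 and 6 cells. In infundibular and duct cells they were 66.7% and 83.3% against 91.3% and 94.4% (9, 6, 23 and 18 cells). In sebocyte-like cells they were 66.7% and 66.7% against 100% and 90.0% (3, 6, 4 and 10 cells). In each of these 4 classes both 38w replicates lay under both 38wUW replicates. Over all cells 46.1% of the 7056 genes showed no overlap in shares, and the figure within classes was not taken. In bulge-like cells every cell of RepL, RepM and RepN had a read, and 1 of the 2 cells of RepI. With the 3 classes that had at least 5 cells in every replicate at equal weight, the shares were 36.1% and 34% against 62.3% and 72.2%, a difference of -32.2 points beside -47.1 in the cells as sampled. The summed level in basal-like cells was 43.5 and 5.28 CPM against 215.1 and 133.1, with a log2 fold change of -2.66 ± 1.44 (edgeR adjusted p = 0.815, where 0.0225% of 8908 genes were called). In infundibular and duct cells the level was 81.6 and 420.4 CPM against 330.3 and 250, which overlapped (0.27 ± 1.24; 0% of 7369 genes called). In interfollicular differentiated-like cells 0.0339% of 5907 genes were called. None of the members tested was called in these 3 classes, 10 in infundibular and duct, 9 in interfollicular differentiated-like and 8 in basal-like cells, while Gata6 in the second and Grhl3 and Ovol1 in the third were too low to test. Bulge-like and sebocyte-like cells were not fitted between the groups.

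Gata6 was most widely read in infundibular and duct cells, in 37 of 56 of them (66.1%) against 13.1% of all other cells. The replicates gave 55.6%, 50%, 82.6% and 55.6%, each above the other cells of the same replicate. The next class, sebocyte-like, stood 40.9 points lower at 20% ± 24.5, and the lower 4 classes did not differ beyond their spread. In sums, Gata6 had 73.7, 108.8, 228.3 and 86.6 CPM in infundibular and duct cells, a log2 fold change of 3.31 ± 1.14 against the mean of the other classes (edgeR adjusted p = 0.124, where 4.09% of 10743 genes were called). Without RepL it was 4.92 and was called, which it was under no other alternative. One cell set a contrary value, for the bulge-like cells of RepL held 210.2 CPM of Gata6 and 1 of them carried 65.4% of that replicate's Gata6 reads. With the 3 classes at equal weight the difference between the groups was -11.9 points beside -20.1 in the cells as sampled.

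Gata3 ran the other way. Its reads were found in 35 of 46 interfollicular differentiated-like cells (76.1%) and in only 8 of 56 infundibular and duct cells (14.3%), so it separated the differentiated classes. Its replicates gave 76.2%, 64.3%, 100% and 83.3% in the first and 11.1%, 0%, 17.4% and 16.7% in the second, without overlap. The log2 fold change in infundibular and duct cells was -2.77 ± 0.81 (edgeR adjusted p = 0.0638), and it passed the threshold without a margin between scores, without RepN and in thinned cells, but not under the other 6 alternatives. In 66 cells with a Gata6 read Gata3 was read in 34.8%, and in 211 cells without one in 55.5%, although RepN alone gave 52.0% and 42.0%. Sox9 was read in 87.9% of the same Gata6-positive cells and in 48.3% of the others, and was the more frequent in Gata6-positive cells in all 4 replicates.

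Trp63 was lowest where Gata6 was highest, being read in 37.5% of infundibular and duct cells and in 83.3% of bulge-like, 72.2% of basal-like, 65.2% of sebocyte-like and 58.7% of interfollicular differentiated-like cells. The infundibular values were tight, at 33.3%, 33.3%, 39.1% and 38.9% by replicate, and each was under the share in the other cells of its replicate. The summed level there was 57.8, 50, 59.4 and 148.6 CPM, a log2 fold change of -1.64 ± 0.54 (edgeR adjusted p = 0.103), which was called in thinned cells and under no other alternative. In bulge-like cells it was 791, 210 and 791 CPM in RepL, RepM and RepN (1.71 ± 0.49, edgeR adjusted p = 0.101), and in basal-like cells 1.36 ± 0.45 (edgeR adjusted p = 0.180, where 0.707% of genes were called).

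Klf4 was read in 91.1% of infundibular and duct cells and in 21.7% of sebocyte-like cells, the only class that stood apart below the rest, by 42.6 points. The sebocyte-like sums held 22.7 and 178.9 CPM in RepL and RepN, and the log2 fold change of -2.58 ± 0.73 was not called (edgeR adjusted p = 0.217, where 0.242% of genes were called), although it was called without a margin between scores, and under that alternative only. Klf5 was also most frequent in infundibular and duct cells, at 60.7% against 38.0% of all other cells, and higher there in all 4 replicates. Its 5 classes formed a series in which no neighbours differed beyond their spread. Summed levels of Klf5 put another class first. The log2 fold change was 0.75 ± 0.66 in infundibular and duct cells (edgeR adjusted p = 0.678). In bulge-like cells it was 1.63 ± 0.76 (edgeR adjusted p = 0.326), although only 5 of 24 thinned cells had a read. The bulge-like sums held 216.8, 105.5 and 47.8 CPM in RepL, RepM and RepN, and 1 bulge-like cell carried 38.9% of the Klf5 reads of RepL.

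Grhl3 and Ovol1, the factors of late differentiation, were read mostly in the differentiated classes, which held 34 of the 40 thinned cells with a Grhl3 read and 47 of the 59 with an Ovol1 read. Grhl3 was read in 37.5% of infundibular and duct cells and 28.3% of interfollicular differentiated-like cells, against 2.78% of basal-like and 4.17% of bulge-like cells. It was read in 0 of 23 sebocyte-like cells, which allows a share of up to 13.0% by the limit of 3 counts and of 14.3% by the Wilson interval. Ovol1 was read in 55.4% and 34.8% of the 2 differentiated classes, and in 5.56% of basal-like, 8.33% of bulge-like and 13.0% of sebocyte-like cells. For both genes, each replicate stood above its other cells in both differentiated classes.

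Summed over infundibular and duct cells, Ovol1 had 93.2, 35.3, 98.6 and 41.2 CPM, a log2 fold change of 2.74 ± 0.78 (edgeR adjusted p = 0.0552). It was called without a margin between scores and in thinned cells, but not under the other 7 alternatives. Grhl3 had 56.4, 11.8, 32.9 and 26.4 CPM there (3.70 ± 1.22, edgeR adjusted p = 0.108), and 35.8, 12.1, 24.1 and 18.2 CPM in interfollicular differentiated-like cells (3.50 ± 1.21, edgeR adjusted p = 0.254, where 1.12% of genes were called). Across the 50 pairs of a member and a class, 16 (32%) had an unadjusted p under 0.05 and 0 were called, beside 12.4% of the 53715 pairs of any gene and a class at that unadjusted p.

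The AP-2 genes differed from each other. Tfap2a was read in 69.4% to 69.6% of the cells of the basal-like, both differentiated and sebocyte-like classes and in 50% of bulge-like cells, with no neighbouring classes apart by more than their spread. Tfap2c was most frequent in interfollicular differentiated-like cells, at 43.5%. It was read in 0 of 24 bulge-like cells, which allows a share of up to 12.5% by the limit of 3 counts and of 13.8% by the Wilson interval, although the unthinned bulge-like sums still held 65.6 CPM of it in RepL.

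A thinned cell had a read of between 1 and 9 of the 10 members, with a median of 4. Infundibular and duct cells had the most, 5.45 ± 1.46 (SD over 56 cells), and sebocyte-like cells the fewest, 3.65 ± 1.23. Correlations between members over the 310 cells, on log2 values centred within plates, were weak. Of 45 pairs, 35 lay within 0.15 of 0, and the range was -0.18 for Trp63 with Grhl3 to 0.27 for Grhl3 with Ovol1. Ovol1 was read in 47.5% of the 40 cells with a Grhl3 read and in 16.9% of the 237 without. Trp63 was read in 45.8% of the 59 cells with an Ovol1 read and in 68.8% of the 218 without, and was the less frequent in all 4 replicates.

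Over the same cells the genes most like each member were sought among 6169 genes read in at least 20% of cells. They are a description, since the points share plates and depth and the highest of many correlations is large by choice. Gata6 went with the duct genes Defb6 (r = 0.50), Krt79 (0.49) and Cst6 (0.47). These were among the markers that scored the infundibular and duct class, and Sbsn, named next, was among those of the interfollicular class. Such correlations are not separate from the class results. Ovol1 went with Cst6 (0.47), Sbsn (0.45) and Clic3 (0.45), and Grhl3 with Cdkn1a (0.47), an inhibitor of the cell cycle, Pla2g2f (0.46) and Pdzk1ip1 (0.46). Klf4 went with the desmosome genes Dsc1 (0.41) and Dsp (0.36) and with Pof1b (0.37), and Klf5 with Ppl (0.30), which encodes periplakin, Anxa1 (0.30) and Plbd1 (0.29).

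Among the genes nearest to Trp63 were Gas1 (0.41) and Slc6a6 (0.33). Sox9 was nearest to Afdn (0.42), which encodes the junction protein afadin, Cited2 (0.38) and Efnb2 (0.37), with r between 0.27 and 0.52 for Afdn in the single replicates. Gata3 was nearest to Fam83c (0.28), to the transcription factor Maf (0.25) and to Egln3 (0.24), although its r with Fam83c was 0.01 in RepM. The nearest genes of Tfap2a were Acad12 (0.25), Marf1 (0.24) and Bcl11a (0.23) and those of Tfap2c were Tmprss4 (0.25), Il1rl2 (0.23) and Psmd6 (0.23), all weak.

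Other genes of the same programmes were followed from lists of known genes. Between 38w and 38wUW none passed the test, neither of 64 other epidermal transcription factors tested nor of 27 p63 target genes nor of 27 barrier genes. The median log2 fold changes were -0.18, 0.90 and -0.54, beside 0.12 over all genes. The smallest p-values among the factors belonged to Sox6 (7.40 and 22.9 CPM against 0.37 and 0.54; edgeR adjusted p = 0.593), Zeb1 (0.31 and 0.34 against 4.34 and 4.0; 0.617) and the follicle factor Trps1 (36.0 and 90.5 against 537.6 and 165.7; 0.617). Among the p63 targets they were Itgb4, Igfbp3 and Krt14 (log2 fold changes 2.21, 2.45 and 3.46), and among the barrier genes Tgm3 (3.69), Ivl (-2.42) and Flg (-2.41).

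Between classes, where lists were cleared of the genes that scored them, the other transcription factors gave calls beside the uncalled members. In infundibular and duct cells 7 of 61 rose and 1, Maf, fell, where 4.09% of all genes were called. Foremost were Mxd1 (7.20), Prdm1 (6.86) and Ehf (6.49 on the log2 scale, edgeR adjusted p = 8.64e-05). Maf was the 1 of 61 called in interfollicular differentiated-like cells, where it rose (3.41 ± 0.62, edgeR adjusted p = 0.00666), beside 1.12% of all genes. In bulge-like cells 4 of 61 rose, where 1.1% of all genes were called. Among them were the follicle stem cell factor Lhx2 (456, 375 and 288 CPM, 8.19 ± 1.30 on the log2 scale, edgeR adjusted p = 0.00635) and Gli2. The Gli2 sums were uneven, at 1.34, 5.95 and 78.7 CPM in RepL, RepM and RepN (7.32 ± 1.27, edgeR adjusted p = 0.0179). Foxq1 fell there, with all 3 sums at 0. None of the 61 was called in basal-like or sebocyte-like cells. Of 21 barrier genes, 16 rose in infundibular and duct cells and 8 in interfollicular differentiated-like cells, beside 4.09% and 1.12% of all genes. These were the classes with the highest shares of Grhl3 and Ovol1. The interfollicular class was scored on other genes of the barrier list, such as Krt1 and Krt10, so its count is not independent of the scoring. Of 21 p63 targets, 3 rose in interfollicular differentiated-like cells (Serpinb5, Perp and Dsc3), beside 1.12% of all genes called. In basal-like cells 2 rose (Igfbp3 and Lamb3), beside 0.707% of all genes, and that class was scored on other p63 targets such as Krt5. Only Fgfr2 was called in infundibular and duct cells, where it fell, 1 of 21 beside 4.09% of all genes. Only Dsc3 was called in sebocyte-like cells, where it fell, beside 0.242% of all genes.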

How the data were processed

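The authors quantified reads with Salmon 0.13.1 (the submitters' processing notes also name R 4.0.3) against the Ensembl 101 mouse transcriptome (mm10/GRCm38), and deposited estimated counts per gene and cell, not normalised. Of values above 0, 14.5% were not whole. Counts were rounded, summed per replicate (or per replicate and class with at least 5 cells, 17 sums), and fitted with edgeR 4.0.16 (TMM, filterByExpr, quasi-likelihood F test, Benjamini-Hochberg over all genes tested). The class fit had the replicate as a block. The SE of an edgeR log2 fold change was worked back from its size and the F statistic, and is approximate. DESeq2 1.42.0 was an alternative. Cells were thinned without replacement to 20000 reads. Class scores were mean z-scores of log2(reads per 10000 + 1), and the best score had to reach 0.1 and lead by 0.2, thresholds chosen after the data were seen. Named beside the members are the 3 genes most correlated with each and, per list, the 3 with the largest called change or, with no call, the smallest p. One such gene is not reported here. The code of the fits was run on simulated counts whose spread was set and not taken from these data, which does not measure power here. Members and lists were chosen with earlier results of these data known. Intervals cover counting error only. Doublets were not called, and libraries named MBULK were kept, with the fit and shares between groups also taken without them.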

Additional observations from a re-analysis of the deposited data

Results flagged for a closer look

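One result was marked for a closer look, because the groups differed in opposite directions in different classes of cells. Tfap2c was read more often in 38w than in 38wUW in basal-like cells (16.7 percentage points, both 38w replicates above both 38wUW replicates) and in interfollicular differentiated-like cells (23.3 points, likewise), but less often in infundibular and duct cells (-14.6 points, both below both). The shares behind it were 36.4% and 30.4% against 22.2% and 11.1%, 42.9% and 57.1% against 20% and 33.3%, and 11.1% and 16.7% against 34.8% and 22.2%, and some rest on 5 to 9 cells. The difference between the classes was not tested, and the case was picked from 10 members in several classes. Each of these classes gave an exact permutation p of 0.333, the lowest that 2 against 2 replicates allow. Over all cells 46.1% of 7056 genes showed no overlap in shares, and the figure within classes was not taken. Thinned to 10000 reads, the overall Tfap2c difference turned to -0.56 points.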

How the results depend on the processing

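No call of a member between the groups was made under any alternative tried, over all cells or within the 3 classes fitted. The number of all genes called was 0 in the fit reported, 83 with DESeq2, 1 without the filter on low counts, 1 with the batch tag as a replicate block and 4 with the alternative tag as a block, and ranged from 0 to 1215 with 1 replicate left out (1215 without RepL, 169 without RepI). Plates that share the first batch tag gave correlations of their deviations between 0.03 and 0.21, and those that share the second between -0.21 and -0.03. The deviations of the 2 plates of 38wUW are opposite by construction, so the second set is the first with its sign turned. The tags were not taken as a pairing. Within classes DESeq2 called 18 (infundibular and duct), 42 (interfollicular) and 89 (basal-like) genes, beside 0, 2 and 2, and leaving out a replicate gave 0 to 778, 5 to 9 and 0 to 61. The count of called pairs of a member and a class, 0 as reported, was 1 with scores within plates, 3 without a margin, 1 without the replicate block and 5 in thinned cells, and 0 to 2 with 1 replicate left out. With 1 replicate of a group left, that replicate is assumed to vary like the others.

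The log2 fold change between the groups turned for Trp63 (from -0.73 without RepL to 0.91 without RepI, -0.23 with equal weight per cell, -0.068 thinned, -0.25 and -0.21 with the first and second batch tag as replicate block), Tfap2a (-1.13 without RepL to 1.10 without RepI, -0.25 and -0.24 with the blocks), Grhl3 (-1.87 without RepI to 1.16 without RepL, -0.03 without RepN, -0.29 with RepI from C118 only) and Ovol1 (-0.90 without RepI to 1.66 without RepM, -0.18 without RepN, -0.21 thinned, -0.29 with the second tag as block, -1.22 with C118 only). In the class contrasts Klf5 in bulge-like cells turned from 1.63 to -0.064 when thinned. The share difference turned for Trp63 (0.091 points at 10000 reads, -6.10 without RepL to 2.22 without RepI, 0.32 without RepM, 3.94 with C118 only), Klf5 (-2.58 at 10000 reads, -1.07 without RepI to 13.3 without RepL), Tfap2c (-0.56 at 10000 reads), Tfap2a (1.94 at 5 reads or more, -29.8 without RepL to 14.8 without RepI), Grhl3 (0.70 at 5 reads, -4.59 without RepI to 4.52 without RepL, 2.56 without RepM) and Ovol1 (4.17 not thinned, 0.92 at 10000 reads, 4.01 at 5 reads, -6.90 without RepI to 2.39 without RepL, 1.69 without RepM). Of the alternatives added after the data were seen, RepI from C114 only turned Grhl3 to 2.17 points, and the 3 classes at equal weight turned Gata3 to -11.0, Grhl3 to 5.25 and Ovol1 to 2.95. Without the 15 cells with a suffix no member turned. Sox9, Gata6 and Klf4 kept the sign of their share difference in all alternatives, and the cause of the other turns was not tested.

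Depth limited Grhl3, Ovol1, Tfap2c and Gata6, whose cells with a read held a median of 2 reads or fewer after thinning, and the design, with 2 replicates a group, limited every test between groups.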
